A study of Homo sapiens with 6 samples.

Results

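The circadian clock genes analysed here were PER1, PER2, PER3, CRY1, CRY2, NR1D1, DBP, BHLHE40 and CIART, together with NOCT, which encodes nocturnin. They were taken by gene symbol, and all 10 were found among the 38041 genes of the table. The set was chosen by the difference in FPKM between the groups measured here, because NOCT was among the largest decreases. Its values are therefore a description and were not tested. The other 9 entered as named genes of the clock. RNA was sequenced from HCT116 cells, a human colorectal carcinoma line. The overEXP group was stably transfected with EPHX2, the gene of soluble epoxide hydrolase, and the negative control (NC) group was transfected with an empty vector. The study's methods describe infection with a lentivirus and puromycin selection, and do not say whether the infected cells were cloned or kept as a pool. Other fields of the labels call the NC cells untreated or normal cultured cells. Each group had 3 libraries, which the study's text calls cell lines and the labels number as replicates. How the lines of a group were derived from each other is not given in the sources used here, and the p-values rest on the spread between these libraries.

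The circadian clock is a transcriptional loop that most human cells carry. CLOCK and BMAL1 bind E-box sequences and switch on the PER and CRY genes, whose proteins return to the nucleus and block CLOCK and BMAL1. A second loop runs through the nuclear receptors NR1D1 and NR1D2, which repress BMAL1, and the ROR receptors, which activate it. DBP, TEF and HLF activate genes through D-box sequences, and NFIL3 represses them there. Cells in a dish drift out of phase with each other unless they are synchronized. The sources used here describe no synchronization and no time series, and the study's methods give no time of harvest. A level is an average over cells, and the phase of the cells of either group at harvest is not known. In bulk RNA, fewer cells with a transcript and less of it per cell cannot be told apart.

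The proximal promoters are shown because the loop acts through them. RefSeq promoters on GRCh38.p14 were found for all 10 genes and run from 250 bases before to 50 bases after the annotated start. In these 300 bases, on both strands, the E-box CACGTG was found in 3 of the 10 genes (PER1, BHLHE40 and CIART) and in 7.26% of all 35116 promoters of that length. Its variant, the E'-box CACGTT, was found in PER2, CRY1 and NR1D1 and in 5.34% of all promoters. The D-box (TTATGTAA or TTACGTAA) was found in PER2 and PER3 and in 1.01% of all promoters. The windows of NOCT, DBP and CRY2 held none of these, and none of the 10 held the cyclic AMP response element TGACGTCA (1.85% of all promoters). The core site of the ROR and NR1D receptors (AGGTCA or GGGTCA) was found in PER1, CRY1 and CRY2 and in 25.6% of all promoters, and TGACG, the core of the cyclic AMP response element, in PER2, CRY1 and CRY2 and in 24.6%. These counts are matches of letters and say nothing of binding. CIART is shown for its 3 E-boxes, at positions -129, -71 and -57 from the start site. BHLHE40 and PER1 are shown for their single E-boxes, at positions -245 and -173, and DBP and NOCT because they are the genes with the widest log2 differences among the 8 that met the expression minimum. The RefSeq starts of PER1 and PER2 lie inside the longer GENCODE genes, and that of CIART lies just inside its GENCODE gene. E-boxes are in capitals.
CIART, chr1:150282304-150282603, plus strand: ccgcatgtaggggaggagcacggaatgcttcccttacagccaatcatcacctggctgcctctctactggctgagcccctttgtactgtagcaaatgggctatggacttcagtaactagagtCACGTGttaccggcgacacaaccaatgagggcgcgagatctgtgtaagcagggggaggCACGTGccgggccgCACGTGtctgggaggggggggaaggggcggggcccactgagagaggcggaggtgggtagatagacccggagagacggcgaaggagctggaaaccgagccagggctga
BHLHE40, chr3:4979187-4979486, plus strand: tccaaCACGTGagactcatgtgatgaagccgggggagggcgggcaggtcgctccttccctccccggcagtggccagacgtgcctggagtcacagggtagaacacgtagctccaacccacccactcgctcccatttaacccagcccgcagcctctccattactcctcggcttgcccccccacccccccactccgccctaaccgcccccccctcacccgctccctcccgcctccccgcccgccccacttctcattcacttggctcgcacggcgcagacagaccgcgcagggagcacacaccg
PER1, chr17:8152355-8152654, minus strand: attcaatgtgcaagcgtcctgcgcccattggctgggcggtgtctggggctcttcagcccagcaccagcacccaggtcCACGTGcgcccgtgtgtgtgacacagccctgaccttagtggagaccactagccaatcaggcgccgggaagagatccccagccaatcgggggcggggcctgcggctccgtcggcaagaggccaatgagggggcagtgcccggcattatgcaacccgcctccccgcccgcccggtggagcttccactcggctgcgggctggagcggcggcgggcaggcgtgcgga
DBP, chr19:48637330-48637629, minus strand: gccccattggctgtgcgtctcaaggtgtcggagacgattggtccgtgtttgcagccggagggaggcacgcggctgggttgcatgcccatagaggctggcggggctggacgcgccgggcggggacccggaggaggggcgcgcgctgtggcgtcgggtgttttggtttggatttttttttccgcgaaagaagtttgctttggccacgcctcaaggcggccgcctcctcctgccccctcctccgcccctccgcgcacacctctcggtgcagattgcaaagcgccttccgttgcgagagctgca
NOCT, chr4:139015531-139015830, plus strand: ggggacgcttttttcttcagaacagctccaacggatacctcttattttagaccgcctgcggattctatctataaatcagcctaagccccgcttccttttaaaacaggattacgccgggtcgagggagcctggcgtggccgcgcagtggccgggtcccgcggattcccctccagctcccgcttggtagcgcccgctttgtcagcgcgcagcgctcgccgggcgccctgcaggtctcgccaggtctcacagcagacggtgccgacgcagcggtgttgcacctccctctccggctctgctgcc

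Before the differences, the libraries were compared. EPHX2, the transfected gene, had an FPKM of 1.67 ± 0.26 in NC and 167 ± 12.9 in overEXP (mean ± SD, n = 3 libraries). FPKM counts sequenced fragments per length of exon and per mapped reads, so it is a level corrected for gene length. RNA encoded by the mitochondrial genome took 29.6% to 34.6% of summed FPKM in NC and 34.9% to 39.9% in overEXP. By correlation of log2(FPKM + 1) over the genes tested, overEXP replicate 1 was the least like the others, at 0.958 to 0.974. It also had the fewest genes at an FPKM of at least 1, 11945 against 12182 to 12470. Another library, overEXP replicate 2, stood apart by genes that were low in all others. In it 129 genes had an FPKM of at least 1 while all other libraries were under 0.1, against 0 to 7 genes in each other library. Of 8 markers of differentiated colon epithelium (CEACAM5, CEACAM6, LGALS4, MUC2, CDX2, VIL1, KRT20 and CDH17), 7 reached an FPKM of 1 only there. Their summed FPKM was 278.9 in this library, 3.07 and 4.10 in the other overEXP libraries and 3.22 to 3.63 in NC. All 5 epithelial markers (EPCAM, KRT8, KRT18, KRT19 and CDH1) were read in every library, with a summed FPKM of 943.1 to 1370 over all libraries. The 4 endothelial markers summed to at most 0.482. The 6 fibroblast markers summed to 2.34 to 2.82 in NC, 2.46 and 3.58 in overEXP replicates 3 and 1 and 12.5 in overEXP replicate 2. For 5 leukocyte markers the sums were 7.16 to 7.57 in NC, 5.41 and 7.38 in overEXP replicates 1 and 3 and 14.2 in overEXP replicate 2. The part of these cell types and of the mitochondrial share in the results was not tested. Where a call was lost without overEXP replicate 2, the value without it is given.

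The clock genes spanned a wide range of levels in NC cells. The levels are a description, and those of NOCT in both groups are values that chose it. NR1D1 was the most abundant member, at 17.4 ± 0.48 FPKM (mean ± SD, n = 3 libraries), and its paralog NR1D2 was at 17.1 ± 0.56, a range that overlapped that of NR1D1. NOCT (14.7 ± 0.60) and BHLHE40 (12.1 ± 0.52) followed, each below the lowest value of the member before it. PER1 was at 5.09 ± 0.18, CRY1 at 2.67 ± 0.17 and CRY2 at 2.15 ± 0.21, with no overlap between these 3 genes. PER2 (1.44 ± 0.19) and DBP (1.14 ± 0.20) overlapped in NC and did not differ beyond their spread. PER3 was at 0.600 ± 0.11 and CIART at 0.0485 ± 0.016. The period paralogs thus stood in the order PER1, PER2 and PER3 in every NC library. In overEXP cells BHLHE40 stood above NOCT, and DBP stood above CRY2 and PER2, while NR1D1 remained first and PER3 and CIART last.

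**Figure D1:**
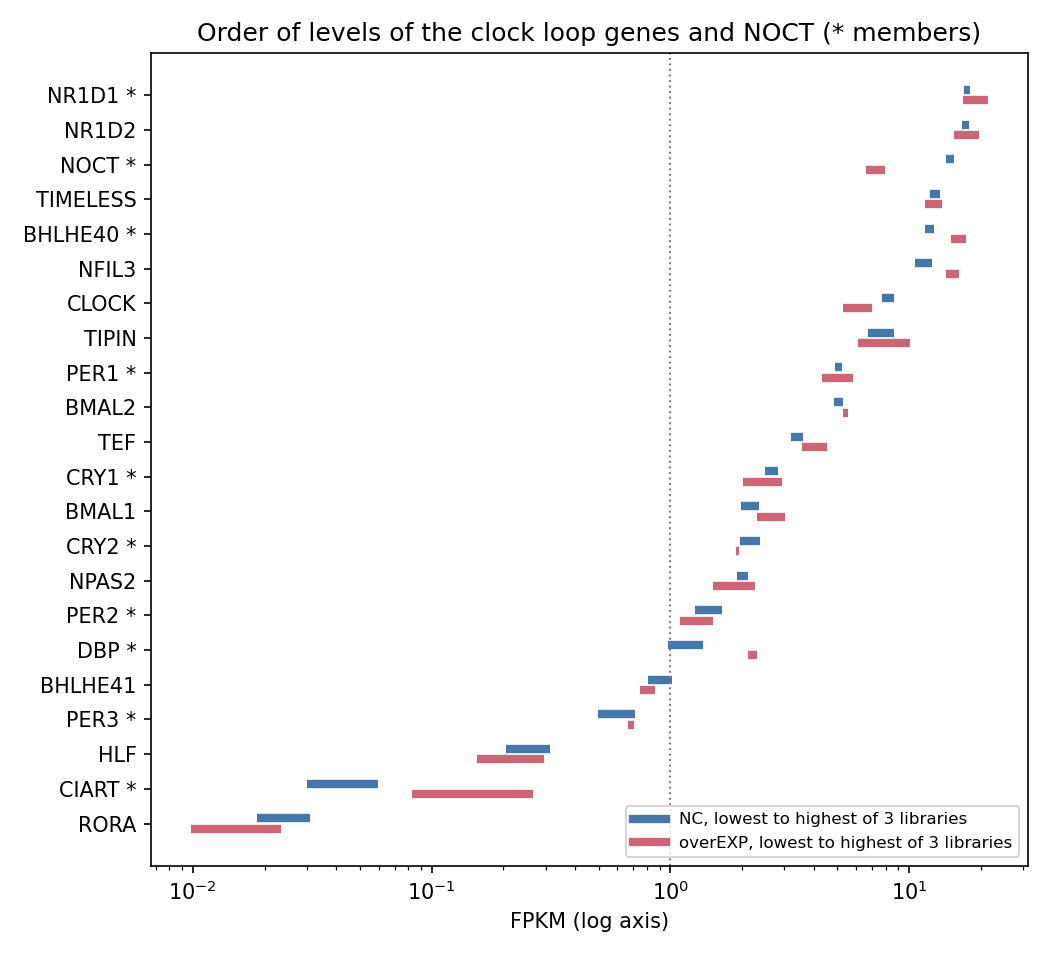
Levels of the clock loop genes and NOCT in FPKM on a log axis, with each bar running from the lowest to the highest of 3 libraries in NC (blue) and overEXP (red), and the dotted line at an FPKM of 1. Genes with a library at 0 are not drawn, and the NOCT bars lie apart, at 14.2 to 15.4 in NC and 6.56 to 7.89 in overEXP.

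NOCT was about 2 times lower in overEXP cells. Nocturnin belongs to the CCR4 family of deadenylase-like proteins and removes the 2′ phosphate of NADP(H). Its transcript cycles strongly in mouse liver, and mice without it resist weight gain on a high-fat diet. NOCT (ENSG00000151014) occupies chromosome 4 from 139015781 to 139045939 (GRCh38, GENCODE v44, plus strand), and its canonical transcript has 3 exons and 1962 bases. Replicates 1, 2 and 3 of NC had FPKM values of 14.4, 14.2 and 15.4, and those of overEXP 7.81, 6.56 and 7.89. Every overEXP library lay far below every NC library, and overEXP replicate 2 had the lowest value. The overEXP mean was 0.506 times the NC mean. The difference of mean log2(FPKM + 1) was -0.90, and -0.82 without overEXP replicate 2. With libraries rescaled to the same sum over genes outside the mitochondrial genome it was -0.92. NOCT stood at place 30 from the lowest among 12281 log2 fold changes. The genes just below it in that order were AL365205 (-0.90) and the microRNA gene MIR6784 (-0.93), and those just above were MIR6746 (-0.90) and the mitochondrial transfer RNA MT-TR (-0.89). ELF2, an ETS transcription factor gene on the opposite strand, overlaps 17828 bases of NOCT. The ELF2 level was 2.10, 2.15 and 1.84 FPKM in NC and 1.82, 2.08 and 2.60 in overEXP, with overlapping groups.

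**Figure D2:**
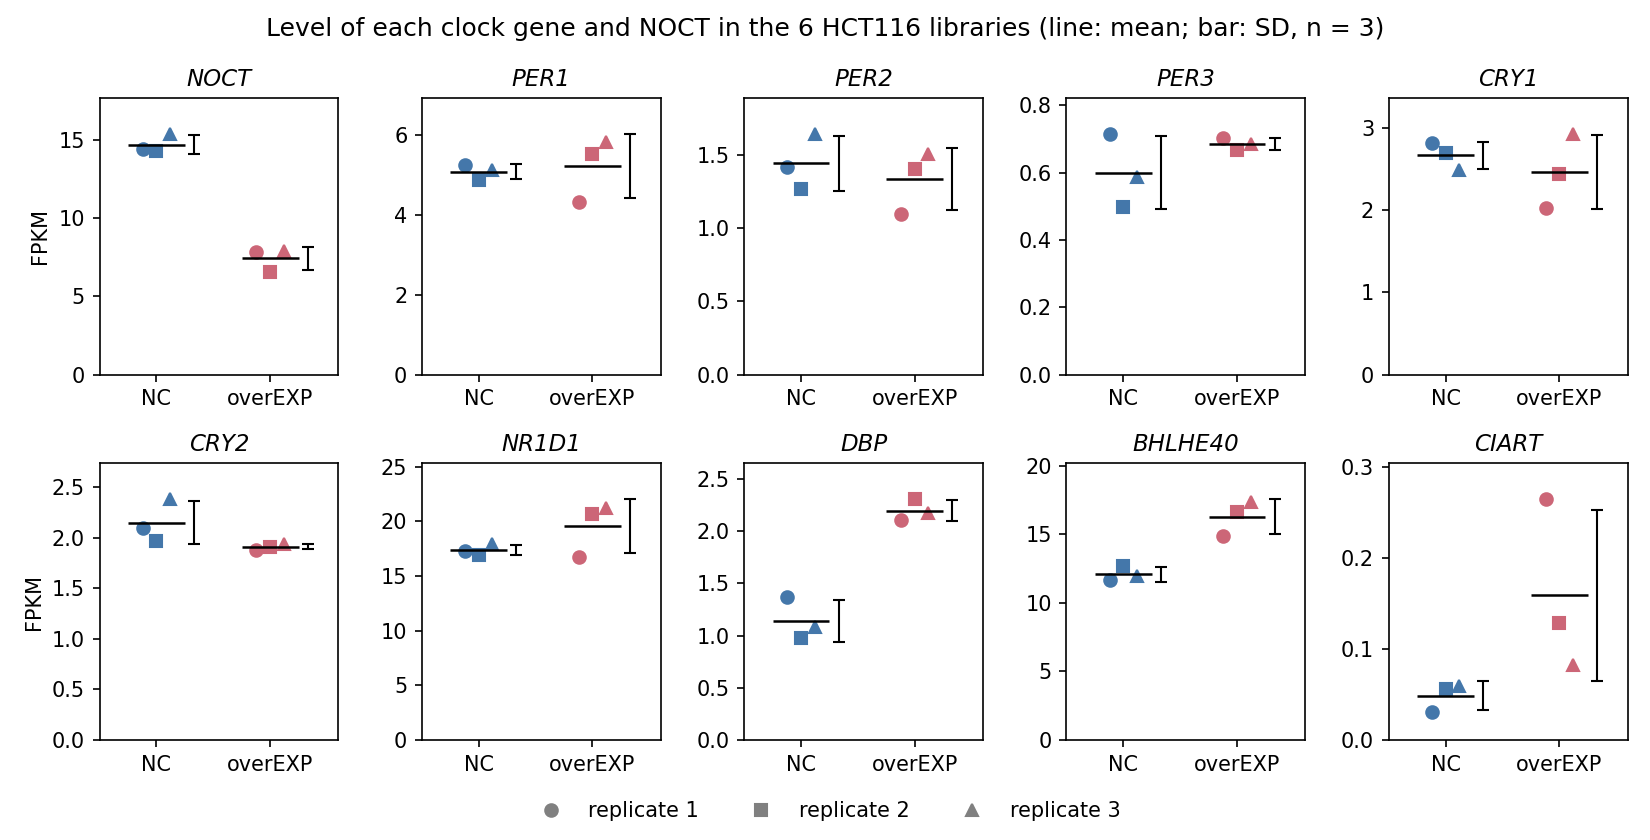
FPKM of each of the 10 genes in the 6 libraries, with a panel per gene on a linear axis from 0, a marker shape per replicate, a line at the group mean and a bar for the SD of 3 libraries. NOCT is low in all 3 overEXP libraries (6.56 to 7.89 against 14.2 to 15.4), DBP and BHLHE40 are high in all 3, and the period and CRY1 panels overlap.

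The genes whose profile over the 6 libraries lay closest to that of NOCT were measured by the root mean square difference between centred log2(FPKM + 1) values. Since the profiles hold the group difference that chose NOCT, this is a description. The closest was PLK2, a polo-like kinase, at 0.0567, with 33.8, 32.6 and 31.9 FPKM in NC and 18.5, 15.9 and 19.0 in overEXP. The actin crosslinker FLNC followed at 0.0691, the long noncoding host gene of miR-22, MIR22HG, at 0.0738, the hyaluronan synthase HAS3 at 0.0832 and the semaphorin SEMA7A at 0.0945. No clock gene was among these 5. The measure keeps the size of the change, and the lowest log2 fold change of a tested clock loop gene was -0.39 (CLOCK). The absence of clock genes here therefore says nothing about the loop.

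DBP and BHLHE40 were the tested clock genes of this set that were called higher in overEXP cells. Of the 9 clock genes, 7 reached an FPKM of 1 in 3 or more libraries and were tested with limma. At an adjusted p under 0.05, 2 of these were higher and 0 lower, and the same 2 were those with an unadjusted p under 0.05. Over all 12281 genes tested, 1.25% were higher, 2.98% were lower and 4.23% were called in either direction. The call was made in the contrast that chose NOCT, and the genes were picked with earlier results of these libraries known, so nothing is read from the share. The groups did not overlap for 3 of the 7 (DBP, BHLHE40 and CRY2), where this held for 30.9% of all genes tested.

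DBP encodes an activator that binds D-boxes and is a direct target of CLOCK and BMAL1. DBP (ENSG00000105516) is on the minus strand of chromosome 19, from 48630030 to 48637379, with 4 exons in its canonical transcript. Its FPKM was 1.37, 0.980 and 1.08 in the NC libraries (in replicate order here and for every gene that follows) and 2.11, 2.31 and 2.18 in the overEXP libraries. All 3 overEXP libraries lay above all NC libraries, and DBP met the minimum of 1 in 5 of the 6 libraries. The overEXP mean was 1.92 times the NC mean. On log2(FPKM + 1), which understates the change of low genes, the log2 fold change was 0.58 (standard error, SE, 0.10, 95% interval 0.35 to 0.81, adjusted p = 0.0287 from limma). The DBP call was lost without NC replicate 2 (adjusted p = 0.12) or 3 (0.123) and without overEXP replicate 2 (0.0807) or 3 (0.0506), and when genes without the expression minimum were tested along with it (0.12). SPHK2, a sphingosine kinase gene on the opposite strand that shares 688 bases with DBP, was at 2.16 ± 0.23 in NC and 1.64 ± 0.32 in overEXP (mean FPKM ± SD, n = 3 libraries). Whether counting used strand is not given in the sources used here, so reads in the shared stretch may belong to either gene.

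BHLHE40, also called DEC1, encodes a repressor that competes for E-boxes with CLOCK and BMAL1 and also responds to hypoxia. BHLHE40 (ENSG00000134107) is on the plus strand of chromosome 3, from 4979437 to 4985323, with 5 exons. Its level was 11.6, 12.6 and 11.9 FPKM in NC and 14.9, 16.6 and 17.3 in overEXP, with no overlap. The overEXP mean was 1.35 times the NC mean, and the log2 fold change was 0.40 (SE 0.08, 95% interval 0.22 to 0.58, adjusted p = 0.0376 from limma). The BHLHE40 call was lost when any library other than overEXP replicate 1 was left out (adjusted p from 0.0597 without overEXP replicate 3 to 0.146 without NC replicate 3, with 0.108 without overEXP replicate 2, 0.108 without NC replicate 1 and 0.12 without NC replicate 2). After rescaling to TPM the log2 fold change was 0.28 (adjusted p = 0.155), where the median of all genes tested lay at -0.20 in place of -0.05. Its paralog BHLHE41 (DEC2) was below the minimum, at 0.937 ± 0.11 in NC and 0.747 to 0.864 in overEXP. The antisense transcript BHLHE40-AS1, which overlaps 978 bases, was under 0.1 FPKM in every library.

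CIART, a repressor of CLOCK and BMAL1 activity that is also known as CHRONO, was too low to be tested. CIART (ENSG00000159208) is on the plus strand of chromosome 1, from 150282543 to 150287093. It was read at 0.0302, 0.0558 and 0.0594 FPKM in NC and at 0.265, 0.129 and 0.083 in overEXP. The 3 overEXP libraries lay above the NC libraries, with overEXP replicate 1 the highest. The difference of mean log2(FPKM + 1) was 0.14, and 0.08 without overEXP replicate 1. The ratio of the means was 3.28, at levels where the read number behind a value is unknown.

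**Figure D3:**
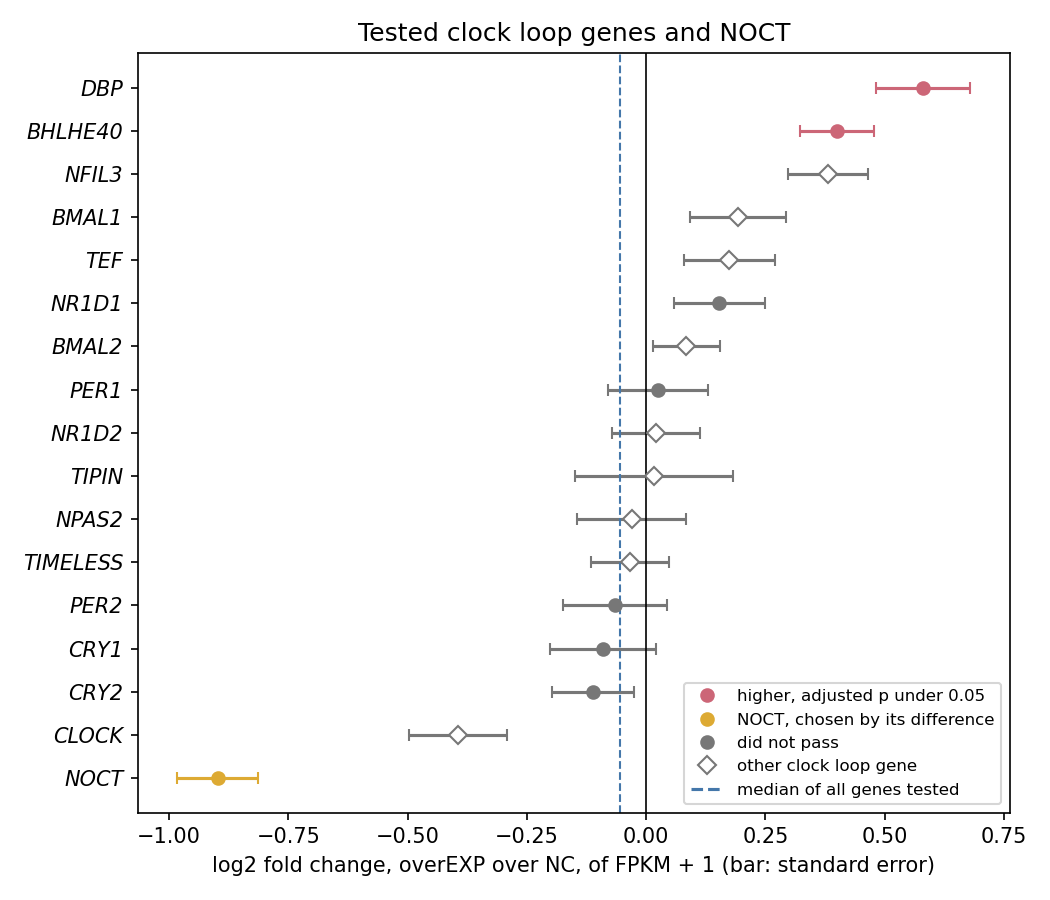
Log2 fold change of log2(FPKM + 1), overEXP over NC, of the 16 clock loop genes tested and NOCT, with standard errors, filled circles for the genes chosen and open diamonds for other loop genes. DBP (0.58) and BHLHE40 (0.40) are red, NOCT (-0.90) lies apart on the left with no test, and the dashed line marks the median of all genes tested (-0.05).

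The period and cryptochrome genes, the negative arm of the loop, did not pass the test in either direction. PER1 (ENSG00000179094, chromosome 17, 8140472 to 8156506, minus strand) was at 5.25, 4.89 and 5.12 FPKM in NC and 4.32, 5.53 and 5.83 in overEXP. The overEXP values lay on both sides of NC, and the log2 fold change was 0.03 (95% interval -0.22 to 0.27, adjusted p = 0.906 from limma). The gene ENSG00000263620, on the same strand, which shares 5691 bases with PER1, was at 0.537 to 1.23 in NC and 0.265 to 0.606 in overEXP, so some PER1 reads may be split between both. PER2 (chromosome 2, 238244044 to 238290102, minus strand) was at 1.42, 1.27 and 1.64 in NC and 1.10, 1.40 and 1.51 in overEXP. Its log2 fold change was -0.07 (95% interval -0.32 to 0.19, adjusted p = 0.752). PER3 (chromosome 1, 7784291 to 7845177, plus strand) was below the minimum in all libraries, at 0.714, 0.499 and 0.586 in NC and 0.701, 0.666 and 0.684 in overEXP. UTS2, the urotensin 2 gene on the other strand, shares 2095 bases with PER3 and was at 0.280 to 0.705 in NC and 0.443 to 0.795 in overEXP.

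CRY1 (chromosome 12, 106991364 to 107093549, minus strand) was at 2.82, 2.70 and 2.49 in NC and 2.02, 2.44 and 2.92 in overEXP, and the overEXP values again surrounded those of NC. Its log2 fold change was -0.09 (95% interval -0.35 to 0.17, adjusted p = 0.658 from limma). CRY2 (chromosome 11, 45847118 to 45883248, plus strand) was at 2.10, 1.96 and 2.38 in NC and 1.88, 1.91 and 1.93 in overEXP. The CRY2 groups did not overlap, but the highest overEXP and lowest NC value were 1.93 and 1.96, and the log2 fold change of -0.11 did not pass (95% interval -0.31 to 0.09, adjusted p = 0.477). The intervals of these 4 genes do not show that their levels were alike. The widest of them reaches to a log2 difference of -0.35.

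NR1D1, the nuclear receptor that represses BMAL1, was at 17.3, 17.0 and 17.9 FPKM in NC and 16.7, 20.7 and 21.3 in overEXP. Its overEXP replicate 1 was the lowest of all 6 libraries and the others the highest, and the log2 fold change of 0.15 did not pass (95% interval -0.07 to 0.38, adjusted p = 0.379 from limma). NR1D1 (chromosome 17, 40092793 to 40100589, minus strand) shares 1075 bases at its end with THRA, the thyroid hormone receptor alpha gene on the other strand. THRA was at 3.94, 3.76 and 3.83 in NC and 4.08, 5.26 and 5.09 in overEXP, a log2 fold change of 0.26 that did not pass (adjusted p = 0.163). For both genes overEXP replicate 1 was the lowest of its group.

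The rest of the loop is given from a list of 23 clock genes, of which 14 are outside the group described so far. Of these 14, 9 were tested and none passed with limma, where 4.23% of all genes did, so that a count of 0 among 9 says little about the loop. At an unadjusted p under 0.05 there were 2 of the 9, and 2817 of all 12281 genes. The median log2 fold change over the 9 was 0.02 beside -0.05 over all genes tested. The activator CLOCK was at 7.65, 8.59 and 8.22 FPKM in NC and 5.27, 5.72 and 6.98 in overEXP. The CLOCK groups did not overlap, and its log2 fold change of -0.39 (SE 0.10, adjusted p = 0.0761) passed only after rescaling to TPM (-0.57, adjusted p = 0.042) and without overEXP replicate 3 (-0.49, adjusted p = 0.0398). Its partner BMAL1, listed as ARNTL, was at 1.98, 2.34 and 2.26 in NC and 2.30, 3.01 and 2.66 in overEXP (log2 fold change 0.19, adjusted p = 0.301). The paralogs NPAS2 and BMAL2 (listed as ARNTL2) had log2 fold changes of -0.03 and 0.08. The D-box repressor NFIL3 was at 10.9, 12.4 and 10.6 in NC and 14.6, 16.2 and 14.2 in overEXP. Its log2 fold change of 0.38 lay at the threshold (adjusted p = 0.0502) and passed after median-of-ratios scaling (0.0411) and quantile normalization (0.0387). TEF, the paralog of DBP, had a log2 fold change of 0.17 (adjusted p = 0.321), NR1D2 of 0.02, and TIMELESS and TIPIN, which act together at the replication fork, of -0.03 and 0.02. HLF (0.271 ± 0.06 in NC) and RORA (0.0244 ± 0.006 in NC) were under the minimum, and RORB was listed at 0 in all NC libraries.

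Ratios within a library do not depend on how libraries are scaled to each other. They are given without a test. The log2 ratio of BMAL1 to NR1D1 was -3.12, -2.86 and -2.99 in NC and -2.86, -2.78 and -3.00 in overEXP, with overlapping groups. That of PER1 to PER2 was 1.64 to 1.94 in NC and 1.95 to 1.98 in overEXP, a narrow gap of which nothing is read. The log2 ratio of DBP to NR1D1, chosen after its values were seen, was -3.66, -4.11 and -4.05 in NC and -2.99, -3.16 and -3.29 in overEXP, so that DBP was higher relative to NR1D1 in each overEXP library.

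Outside the loop, single genes passed in 3 of the 4 lists around the clock, CSNK1D, KLF9 and CDKN1A. The shares called were 6.67%, 0%, 7.69% and 12.5% in lists of 8 to 15 genes tested, each at most 1 gene, beside 4.23% of all genes, and nothing is read from them. Of 15 tested kinases, phosphatases and ubiquitin factors that set the turnover of PER and CRY proteins, 1 was lower and none higher, with a median log2 fold change of -0.05. It was CSNK1D, the casein kinase 1 delta that phosphorylates PER2, at 13.8 ± 0.15 FPKM in NC and 10.8 ± 0.50 in overEXP (mean ± SD, n = 3 libraries). The CSNK1D log2 fold change was -0.33 (SE 0.06, adjusted p = 0.0389 from limma), but no call was made when any one library was left out (adjusted p from 0.0504 to 0.155, and 0.0921 without overEXP replicate 2). Of 15 chromatin cofactors none passed with limma (3 at an unadjusted p under 0.05, beside 2817 of all 12281 genes, median -0.06). Of 13 genes that carry signals to the clock, 1 was higher, KLF9, a transcription factor induced by glucocorticoids, at 1.88, 1.94 and 1.72 in NC and 2.63, 3.07 and 3.01 in overEXP. The KLF9 log2 fold change was 0.45 (SE 0.09, adjusted p = 0.0376), but the call needed every library except overEXP replicate 1 (adjusted p from 0.0597 to 0.152 without each of the others, and 0.105 without overEXP replicate 2). Of 8 tested genes under clock control, some of them loop genes, 1 was lower, the cell cycle inhibitor CDKN1A, which is also a p53 target (173 ± 8.14 in NC and 114 ± 5.66 in overEXP, mean FPKM ± SD, n = 3 libraries, adjusted p = 0.0097). The CDKN1A log2 fold change was -0.61 (SE 0.07). The CDKN1A call was lost without NC replicate 2 or 3 (adjusted p = 0.0647 and 0.056) and without the filter on low values (0.0613).

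NOCT was set beside its protein family and beside enzymes of NADP metabolism. Of 14 other CCR4 family proteins and deadenylase subunits, 1 was lower and none higher (7.14% called, beside 4.23% of all genes), with a median log2 fold change of 0.04. This was PDE12, a mitochondrial phosphodiesterase of the family that removes poly(A) tails, at 6.85, 6.98 and 7.43 FPKM in NC and 4.77, 4.82 and 5.77 in overEXP. The PDE12 log2 fold change was -0.41 (SE 0.09, adjusted p = 0.0475 from limma), but the call needed every library except overEXP replicate 3 (adjusted p from 0.0778 to 0.18 without each of the others, and 0.132 without overEXP replicate 2). At an unadjusted p under 0.05 there were 4 of the 14, beside 2817 of all 12281 genes. The groups did not overlap for 5 of the 14, where this held for 30.9% of all genes tested. Some relatives are named after their values were seen. The catalytic CCR4 subunits CNOT6 and CNOT6L had log2 fold changes of -0.04 and 0.37 (adjusted p = 0.08 for CNOT6L), and ANGEL1 and ANGEL2 of -0.13 and 0.06. CNOT8 had a log2 fold change of 0.25 with no overlap and did not pass (adjusted p = 0.0688 from limma). Of 11 tested genes of NADP metabolism (kinases, dehydrogenases and the phosphatase HDDC3), none passed with limma, where 4.23% of all genes did. At an unadjusted p under 0.05 there were 5 of the 11, and 2817 of all 12281 genes. The groups did not overlap for 6 of the 11, where this held for 30.9% of all genes tested. Their log2 fold changes ran from -0.29 to 0.42, with a median of 0.06. The kinases NADK and NADK2, which make NADP and were also named after their values were seen, had log2 fold changes of -0.16 and 0.04.

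**Figure D4:**
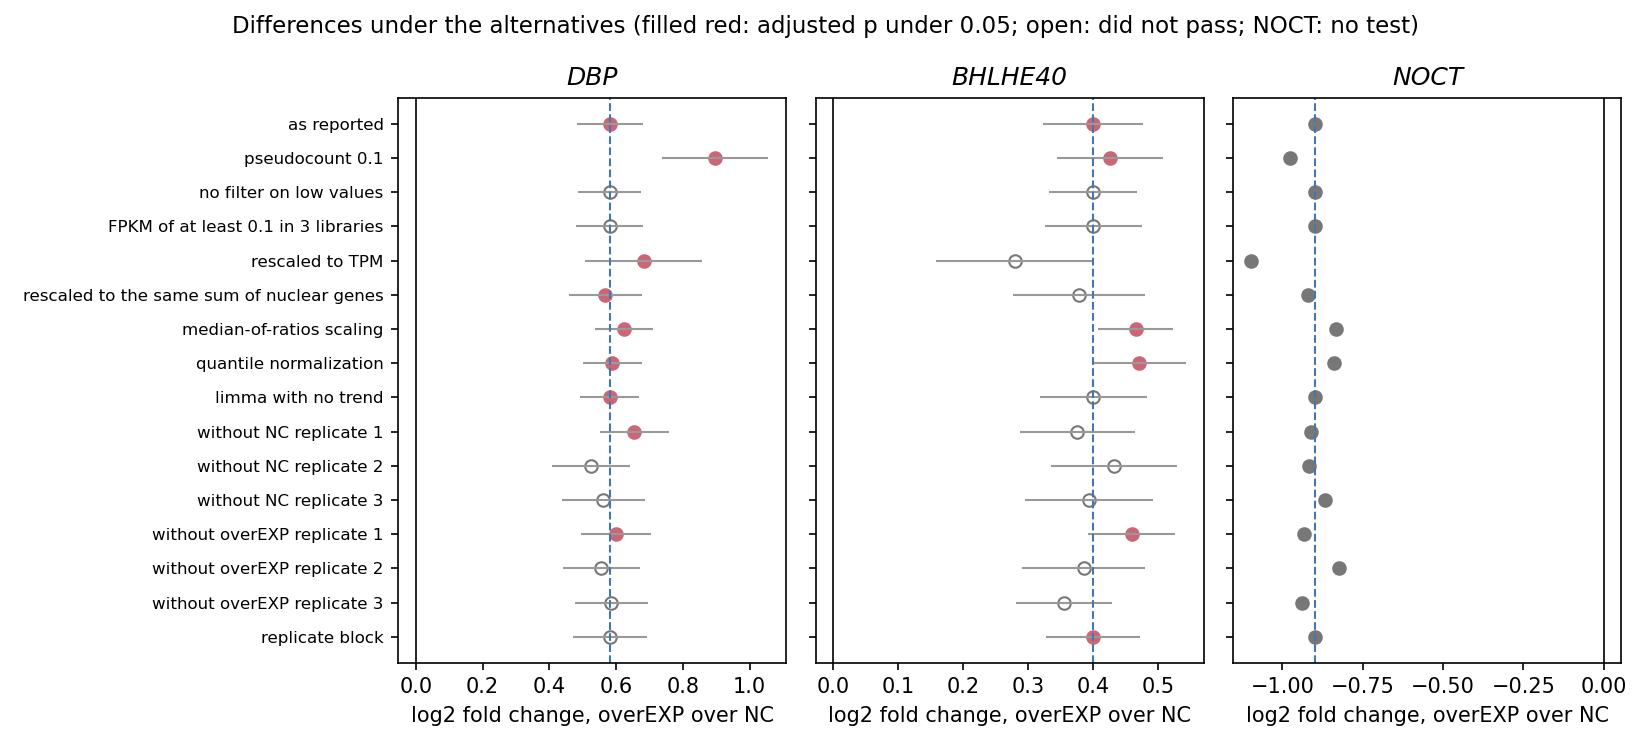
Log2 fold change, overEXP over NC, of DBP, BHLHE40 and NOCT as reported (dashed line) and under 15 alternatives, with standard errors for the genes tested. Filled red points passed at an adjusted p under 0.05 and open points did not. DBP stays between 0.53 and 0.90, BHLHE40 between 0.28 and 0.47 and NOCT, which has no test, between -1.10 and -0.82.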

How the data were processed

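Total RNA of 3 NC and 3 overEXP samples of HCT116 cells was sequenced on an Illumina NovaSeq instrument. The authors filtered reads with FastQC, mapped them to GRCh38 with HISAT2 (version 2.0.4, per the processing notes of the submitters) and estimated gene-level FPKM with StringTie after merging assemblies with gffcompare. The deposited table also holds the authors' fold ratio, its log2 value and their p-values, none of which was used. Its low FPKM values showed no steps of whole reads, so depth is unknown and precision is known only from the spread between libraries. Columns were assigned to groups by their names.

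The 12281 genes that reached an FPKM of 1 in 3 or more libraries were compared as log2(FPKM + 1), using limma 3.58.1 (R 4.3.3), a variance trend no replicate block, two-sided tests and Benjamini-Hochberg adjustment over all genes tested at 0.05. The code was tested on simulated data. With 3 libraries against 3, an exact permutation test of one gene cannot go below p = 0.1, so none was used. Positions are from GENCODE v44 (37906 of 38041 IDs found). The genes and lists were chosen with earlier results of these data known. The text names every chosen gene, the clock loop genes (1 is not reported here), genes of the other lists past the threshold, the 5 genes closest to NOCT, its neighbours in rank and genes overlapping a chosen gene. ANGEL1, ANGEL2, CNOT6, CNOT6L, NADK, NADK2, HDDC3, TSC22D3, FKBP5 and SIK1 fall outside it and were named after their values were seen. Alternatives changed the pseudocount, filter, scaling, variance trend, libraries and pairing.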

Additional observations from a re-analysis of the deposited data

How the results depend on the processing

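DBP and BHLHE40 kept their direction under all 15 alternatives, and their calls held in 8 and 5 of them. Without the filter the adjusted p was 0.12 for DBP (log2 fold change 0.58) and 0.127 for BHLHE40 (0.40), and with a minimum FPKM of 0.1 in 3 or more libraries it was 0.0524 (0.58) and 0.0608 (0.40). Both filters test more genes (38041 and 20483). BHLHE40 also missed after rescaling to TPM (0.28, adjusted p = 0.155) or to the same nuclear sum (0.38, adjusted p = 0.0787) and with no variance trend (0.40, adjusted p = 0.0512). The cause was not tested. Leaving out single libraries gave 0.53 to 0.65 for DBP and 0.36 to 0.46 for BHLHE40. PER1, PER2, CRY1, CRY2 and NR1D1 passed under none. Leaving out single libraries gave -0.05 to 0.13 for PER1, -0.12 to 0.01 for PER2, -0.18 to 0.00 for CRY1, -0.15 to -0.06 for CRY2 and 0.09 to 0.26 for NR1D1. NOCT moved to -1.10 after rescaling to TPM, and lay between -0.94 and -0.82 without single libraries. PER3 had a difference of 0.08, and of 0.17 with a pseudocount of 0.1. CIART reached 0.75 with that pseudocount and 0.35 after rescaling to TPM, where TPM values exceed FPKM and the added 1 weighs less.

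Of the 23 clock loop genes, 16 were tested and 2 were higher as reported, where 1.25% of all genes tested were. As before, nothing is read from the share. The count was 0 under both looser filters and 1 after rescaling to TPM, to the nuclear sum or with no trend, and 3 after median-of-ratios scaling or quantile normalization. In the lower direction, 1 was called after rescaling to TPM (CLOCK), and single libraries left out gave 0 to 2 higher and 0 to 1 lower. Over all genes, 154 were higher and 366 lower as reported (29.6% of calls higher), 3 and 2 without the filter, 70 and 161 with the looser filter, 94 and 852 after rescaling to TPM (9.94% higher), 345 and 362 after median-of-ratios scaling (48.8%) and 306 and 406 after quantile normalization (43%). Single libraries left out gave 23 to 201 higher and 20 to 386 lower, with 201 higher and 231 lower without overEXP replicate 1. The replicate numbers share no stated origin, and same-numbered libraries deviated with correlations of 0.358, -0.0156 and 0.367. With the replicate block, 118 genes were higher and 213 lower, DBP (0.58, adjusted p = 0.0547), CSNK1D, KLF9 and PDE12 did not pass (adjusted p from 0.0547 to 0.0657), NFIL3 passed (0.046), and the BHLHE40 and CDKN1A calls were unchanged. NC replicate 2 did not correlate best with its own number. CSNK1D, KLF9 and PDE12 also missed under both looser filters and after rescaling to the nuclear sum (adjusted p from 0.0608 to 0.164 from limma). KLF9 also missed after rescaling to TPM (0.0871), and CSNK1D and PDE12 with no trend (0.0551 and 0.0568).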

Other observations

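TSC22D3, the leucine zipper protein GILZ that glucocorticoids induce, was noticed after its values were seen among the genes that signal to the clock. Its FPKM was 1.47, 1.41 and 1.72 in NC and 2.06, 4.59 and 4.69 in overEXP. All overEXP libraries were above all NC libraries, with overEXP replicate 1 well below the other two, and the log2 fold change of 0.86 (SE 0.23) did not pass (adjusted p = 0.0814 from limma). FKBP5, which glucocorticoids also induce, was at 4.44 to 5.21 in NC and 4.51 to 5.73 in overEXP, with overlapping groups. The kinase SIK1, which restrains the response of PER1 to cyclic AMP signals in mice, was at 2.08, 1.59 and 1.77 in NC and 1.33, 1.07 and 1.08 in overEXP. The SIK1 log2 fold change of -0.38 (SE 0.10) did not pass (adjusted p = 0.0841 from limma).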
